A study of Mus musculus with 2 samples.

Results

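Hair matrix and inner root sheath cells were picked out of DMBA-induced mouse skin tumours by the keratins they transcribe. A cell barcode was kept when it held at least 500 genes and at most 15% mitochondrial UMIs (unique molecular identifiers, 1 per captured transcript). It was a member when Krt25, Krt28, Krt71, Krt73 and Krt35 together gave at least 5 UMIs per 10000 and at least 3 UMIs. This rule found 356 of 7522 kept barcodes in the control library and 4 of 21484 in the Eed-deleted library, 360 of 29006 in all. The first 4 keratins belong to the inner root sheath and Krt35 to the hair cortex, so the rule joined both programmes. Values of these 5 genes chose the cells and are given as a description only.

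The control library, Ctrl-D, came from Eed flox/flox mice that were given ethanol and DMBA, a carcinogen. The other library, Eed iKO-D, came from K14CrERT2;Eed flox/flox mice that were given hydroxytamoxifen and DMBA, so genotype and tamoxifen differed together. In that strain the keratin 14 promoter drives a Cre recombinase that tamoxifen activates, and recombination is directed at basal keratinocytes and the cells that descend from them. The mice of both groups were 5 months old, carried floxed Eed and received DMBA on the dorsal skin weekly for up to 20 weeks. In the Eed iKO-D mice tamoxifen was put on the skin from postnatal day 50 on 4 days. Eed belongs to PRC2, the Polycomb complex that methylates histone H3 to silence genes. Each group had 1 library of whole dissociated tumour, and the number and sex of the animals were not given in the labels. No difference therefore has a replicate check and no test was made. Cells are not replicates, and every interval in brackets is an exact 95% interval for counting error alone.

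In a growing hair follicle, matrix cells at the base of the bulb divide around the dermal papilla and give rise to concentric layers. The inner layers form the hair shaft (medulla, cortex and cuticle), and the layers around it form the inner root sheath, which guides the shaft upward and is later shed. Wnt signalling through Lef1, together with Bmp signalling and the factors Hoxc13, Msx2 and Foxn1, is known for switching on the shaft keratins, and Gata3 is known for its role in the inner root sheath. Sheath cells pair type I keratins (Krt25 to Krt28) with type II keratins (Krt71 to Krt74), and trichohyalin (Tchh) binds their filaments.

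The sequences just upstream of the sheath keratin genes are shown because these genes chose most of the cells. All are the 250 bases before the RefSeq start site, 5′ to 3′ on the gene's strand (minus) in GRCm38.p6, the genome build also called mm10. Capitals mark AGATAA, a motif of the kind that GATA factors bind. The windows lie at chr11:99322952-99323201 for Krt25, chr11:99351119-99351368 for Krt27, chr15:101743098-101743347 for Krt71, chr15:101802361-101802610 for Krt73 and chr11:99374904-99375153 for Krt28, which has no AGATAA and is shown for contrast.
Krt25: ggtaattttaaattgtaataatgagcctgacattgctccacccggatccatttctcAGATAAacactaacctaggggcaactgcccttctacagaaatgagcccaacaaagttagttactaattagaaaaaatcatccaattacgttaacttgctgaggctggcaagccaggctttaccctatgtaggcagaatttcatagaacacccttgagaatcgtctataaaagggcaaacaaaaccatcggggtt
Krt27: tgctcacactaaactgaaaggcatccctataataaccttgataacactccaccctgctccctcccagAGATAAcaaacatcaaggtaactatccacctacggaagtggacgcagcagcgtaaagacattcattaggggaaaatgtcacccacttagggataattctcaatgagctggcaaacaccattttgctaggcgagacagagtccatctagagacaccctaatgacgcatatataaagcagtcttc
Krt71: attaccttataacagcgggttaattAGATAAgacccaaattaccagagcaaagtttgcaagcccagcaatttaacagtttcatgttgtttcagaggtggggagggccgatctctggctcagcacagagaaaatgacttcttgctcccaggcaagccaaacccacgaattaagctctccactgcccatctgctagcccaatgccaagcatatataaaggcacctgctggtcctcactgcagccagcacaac
Krt73: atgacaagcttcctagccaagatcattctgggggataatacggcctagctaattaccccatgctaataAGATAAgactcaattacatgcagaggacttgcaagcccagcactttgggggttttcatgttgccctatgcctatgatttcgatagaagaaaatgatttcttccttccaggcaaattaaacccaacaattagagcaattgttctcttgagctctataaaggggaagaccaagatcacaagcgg
Krt28: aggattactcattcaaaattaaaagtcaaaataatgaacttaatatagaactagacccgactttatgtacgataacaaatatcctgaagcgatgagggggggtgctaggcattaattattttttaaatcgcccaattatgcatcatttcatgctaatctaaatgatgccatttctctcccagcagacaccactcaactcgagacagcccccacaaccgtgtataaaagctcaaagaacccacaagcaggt

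AGATAA began at position -194 from the start site in Krt25, -183 in Krt27, -225 in Krt71 and -182 in Krt73. The window of Tchh also held it, at -154, while those of Krt26 and Krt72 did not. AGATAA or its reverse complement TTATCT was present in 9.99% of 32851 promoter windows of the same length. TATAAA stood on the gene's strand in the windows of Krt25, Krt27, Krt28, Krt71 and Krt73, against 12.4% of windows on either strand (TATAAA or TTTATA). The LEF/TCF-type motif CTTTGA, or TCAAAG on the other strand, was in 13.8% of windows, and of the 5 windows printed it was in that of Krt28. The related CTTTGT, or ACAAAG, was in 16.5% of windows and, of those printed, in that of Krt25. A match is a description of letters and not of binding. No window of Krt35 was in the table used here.

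Ctrl-D held 8039 barcodes with 120500892 UMIs and Eed iKO-D 22259 with 289511009, and the median depth of kept barcodes was 13199 and 3191 UMIs. Members of Ctrl-D had a median of 13998.5 UMIs (1201 to 75743) and 3672 genes. The libraries shared 40 kept barcodes, including 2 members of Ctrl-D, and no barcode was a member in both. Scrublet, a doublet caller, marked 129 barcodes in Ctrl-D, 8 of them members, and 0 in Eed iKO-D, so the caller failed for that library. Doublets were left in. The labels call the cells of both libraries epidermal cancer cells.

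The markers of the label were present on top of the rule. Lef1, the Wnt-responsive factor of the matrix, had a UMI in 270 of 356 members (75.8%), against 3.34% of 4762 other keratinocytes of Ctrl-D. It had one in 12.4% of 589 cells with Ptprc, a leukocyte gene; T cells also express Lef1. Krt27, a sheath keratin outside the rule, had a UMI in 63.8% of members, 3.32% of other keratinocytes and 0.679% of Ptprc cells. Other keratinocytes were defined by Krt5, Krt14, Krt1 and Krt10 together at 50 or more per 10000. Median depth was 16752.5 UMIs in those cells and 3753 in Ptprc cells. Of the rule keratins, Krt25 had a UMI in 0.849% of the Ptprc cells and Krt28 in 0.509%, cells that should lack them. Of the 10 Krt28 UMIs in Ptprc cells, 6 lay in 1 cell. The source of these UMIs, free RNA or doublets, was not tested. As Ptprc cells were shallower, their percents give no background level for members.

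Among the members, the sheath keratins were the most frequent of the chosen genes. Krt28 (chromosome 11, 99364872 to 99374903, minus strand) had a UMI in 298 members and Krt25 (chromosome 11, 99315516 to 99322951) in 265, and 253 of those 265 cells also had Krt28. The type II partners were seen in fewer cells. Krt71 (chromosome 15, 101733949 to 101743109) had a UMI in 92 members and Krt73 (chromosome 15, 101793308 to 101802346) in 53, with 33 cells holding both. Of the 92 Krt71 cells, 83 also had Krt28 and 9 had Krt35. Krt35 (chromosome 11, 100092193 to 100096241) was found in 112 members, of which 109 had Lef1 and 58 had Krt86, a type II cortex keratin.

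Levels are in CPM, the UMIs of a gene summed over a group of cells and divided by all UMIs of that group, on the usual CPM scale. Over all members Krt25 stood at 1256 CPM, Krt28 at 542, Krt71 at 872, Krt73 at 262 and Krt35 at 638. The levels came from cells of very different content. Rule keratins had a median of 12.2 UMIs per 10000 in a member and a highest value of 854, and 26 cells lay above 100. Just inside the threshold, 34 members had 5 to 6 UMIs per 10000, with a median of 7 rule UMIs, and just outside it 44 barcodes had 4 to 5. Krt26 had 16 UMIs in 13 members, Krt72 had 3 UMIs in 1 member, and Krt74 was not measured here.

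Members were placed by the share of Krt35 among the rule keratins. A share of at most 0.2 put 261 cells on the inner root sheath side, a share of at least 0.8 put 61 on the Krt35 side, and 34 were mixed. These are ranges of a score and not cell types. Near the limits, ends not included, 10 cells had a share between 0.1 and 0.3 and 16 between 0.7 and 0.9. No Krt35 UMI was seen in 244 members, and 34 held Krt35 as their only rule keratin.

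**Figure D1:**
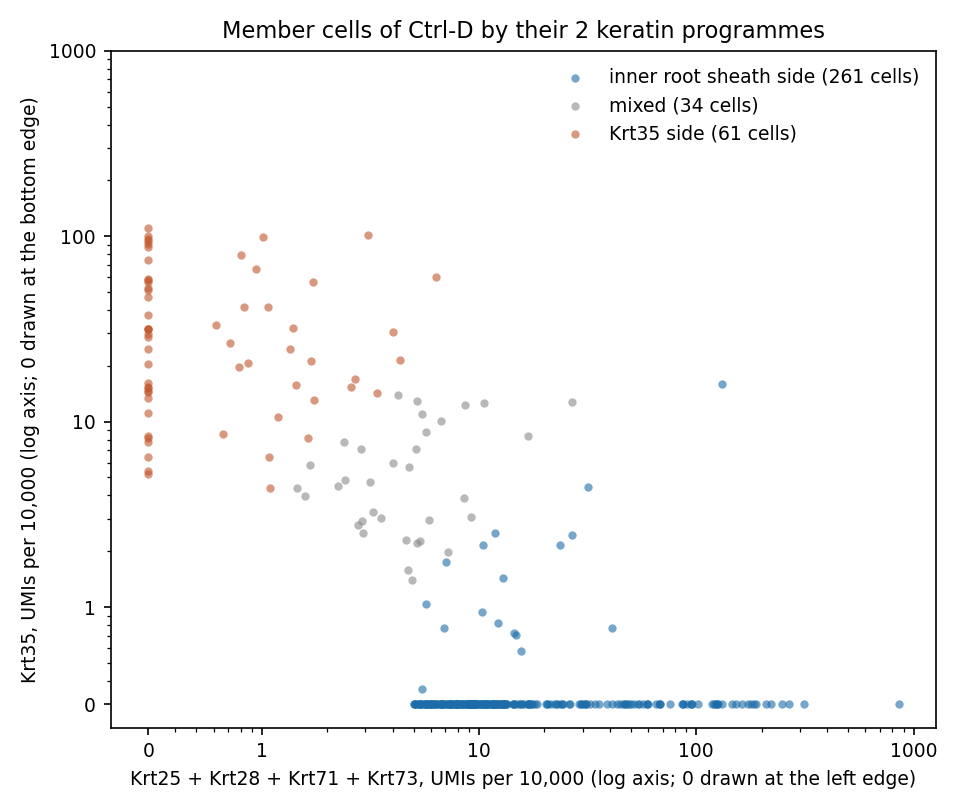
Each point is a member cell of Ctrl-D, with the summed Krt25, Krt28, Krt71 and Krt73 UMIs per 10000 on the x axis and Krt35 UMIs per 10000 on the y axis (log axes, 0 at the edges). The 261 cells of the inner root sheath side lie along the bottom, the 61 of the Krt35 side along the left, and 34 mixed cells lie between them.

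The inner root sheath side was set against the Krt35 side over all genes with at least 20 UMIs in both together. Of 10396 genes, 1543 (14.8%) were at least 2-fold higher on the sheath side and 573 (5.51%) at least 2-fold higher on the Krt35 side. With the whole counting interval past 2-fold, these were 271 (2.61%) and 188 (1.81%). Over all these genes the log2 ratio had a median of 0.13. Some of the largest sheath-side ratios came from few cells. Of the 15 highest by the rule for named genes, 11 were genes of cornified or stressed epidermis, such as the late envelope gene Lce1a1, Lor and S100a9, with 81.7% to 100% of their sheath-side UMIs in 1 cell. Of 803 Lce1a1 UMIs in members, 802 lay in sub-cluster 2 of the member clustering, and melanocyte genes led sub-cluster 5. Ratios are therefore also given without both sub-clusters, a choice made after the data were seen. Over the remaining 200 sheath-side and 54 Krt35-side cells, 1808 of 9490 genes (19.1%) were higher and 467 (4.92%) lower. That choice also drops cells high in sheath keratins, since Krt25 and Krt71 stood higher in sub-cluster 2 than in any other sub-cluster.

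Of the list of 16 inner root sheath proteins and regulators, 14 could be measured, with 7 at least 2-fold higher on the sheath side, 4 higher on the Krt35 side and a median log2 ratio of 0.44. Gata3, the sheath regulator, had a UMI in 73.2% of sheath-side and 14.8% of Krt35-side cells. It stood at 186 and 41.3 CPM, a ratio of 4.50 (3.28 to 6.35), but 45.0% of its Krt35-side UMIs lay in 1 cell. Without sub-clusters 2 and 5 the levels were 181 and 2.89 CPM, a ratio of 62.9 (17.3 to 520). Cux1, a homeodomain factor, stood at 962 and 285 CPM (3.37, 2.99 to 3.83). Krt27 was 6.01-fold higher on the sheath side (4.15 to 9.04), and 3.18-fold without those sub-clusters. The desmosomal cadherins Dsg1a (2.41-fold) and Dsc1 (4.49-fold) were higher there as well. Trichohyalin was patchy. Tchh had a UMI in 46 of 261 sheath-side cells and 39.7% of them came from 1 cell, so its ratio of 256 (70.8 to 2116) became 20.6 (5.63 to 171) without the 2 sub-clusters.

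The list also held the 4 genes higher on the Krt35 side. Mt4, a metallothionein of differentiating squamous epithelium, had a UMI in 95.1% of Krt35-side and 37.9% of sheath-side cells, at 2186 and 276 CPM. That is 7.92-fold (7.38 to 8.51). Trps1, a GATA-type repressor, stood at 1058 and 429 CPM, 2.47-fold higher on the Krt35 side (2.28 to 2.66). The other 2 were Padi3 and Padi4, arginine deiminases that citrullinate trichohyalin and other proteins, at 2.37-fold and 4.50-fold on few UMIs.

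Genes outside the lists that led the sheath side after sub-clusters 2 and 5 were left out included receptors and regulators found in many cells. Creb5, a transcription factor, stood at 540 CPM against 11.5 (46.7-fold, 23.7 to 108). Plxna2, a semaphorin receptor, stood at 203 against 4.33 CPM (46.8-fold), Prickle1, a planar polarity protein, at 152 against 7.22, and Cntfr, a cytokine receptor, at 75.4 against 2.89. Lmo4, a LIM-only cofactor, was 13.5-fold higher and the ephrin ligand Efna5 12.5-fold. With the 2 sub-clusters left in, the same genes stood between 3.98-fold (Efna5) and 23.1-fold (Cntfr).

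The Krt35 side had more transcripts of several shaft keratins. Of 15 shaft keratins, 5 could be measured and all 5 were at least 2-fold higher there, with a median log2 ratio of -3.10 (-4.16 with Krt36 and Krt33a, at 0 UMIs on the sheath side, placed at their lower bounds against a floor of 3 UMIs over the group, which carry no pseudocount). Krt86, the type II partner expressed in the cortex, had a UMI in 41 of 61 Krt35-side cells and 10 of 261 sheath-side cells, 133 against 2.76 CPM, or 48.3-fold (26.7 to 96.0). Krt83 was 94.4-fold (24.6 to 805) and Krt87 36.0-fold (15.4 to 103) higher. Krt36 had 0 UMIs on the sheath side and was at least 50.9-fold higher against the floor. Krt81, with 18 UMIs below the minimum for the list count, was at least 27.0-fold higher. Other shaft keratins were scarce. Krt31 and Krt33a each had UMIs in 2 members, with 94.4% and 97.0% of them in 1 cell, and Krt33b, Krt34 and Krt40 had none. Of 57 keratin-associated protein genes, which make up the matrix between shaft filaments, 3 could be measured, and of the Krtap8-1 UMIs 85.1% lay in 1 member.

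Of 17 other shaft proteins and regulators, 15 could be measured, with 8 higher on the Krt35 side, 2 higher on the sheath side and a median log2 ratio of -0.89. Hoxc13, the homeodomain regulator of shaft keratins, had a UMI in 93.4% of Krt35-side and 33.0% of sheath-side cells, at 342 and 38.9 CPM (8.80-fold, 7.29 to 10.7). Dsg4, the desmoglein of the hair shaft, stood at 81.6 against 0.919 CPM (88.8-fold, 33.3 to 334). Selenbp1, a selenium-binding protein, stood at 373 against 3.68 CPM (101-fold, 61.6 to 179). S100a3, a calcium-binding protein of the hair cuticle, stood at 1711 against 28.7 CPM, with 41.9% of the Krt35-side UMIs in 1 cell. Without sub-clusters 2 and 5 it was 32.6-fold higher (26.0 to 41.3). Foxn1, the nude gene, was 2.42-fold higher on the Krt35 side (1.62 to 3.57). Dlx2 was 2.43-fold higher on the sheath side, and Dlx1 at least 6.97-fold with 0 UMIs on the Krt35 side.

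The rule for named genes added others to the Krt35 side. Dapl1, a death-associated protein-like gene of differentiating epithelium, had a UMI in 85.2% of Krt35-side cells (1779 against 50.8 CPM, 35.0-fold). The kinase gene Dclk3 (77.5-fold), the iron reductase Cybrd1 (22.1-fold) and the ribonuclease Rnaset2a (13.6-fold) were higher too, with a UMI in 60.7%, 75.4% and 100% of Krt35-side cells. Nrg1, also chosen by the rule, had 83.0% of its Krt35-side UMIs in 1 cell.

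**Figure D2:**
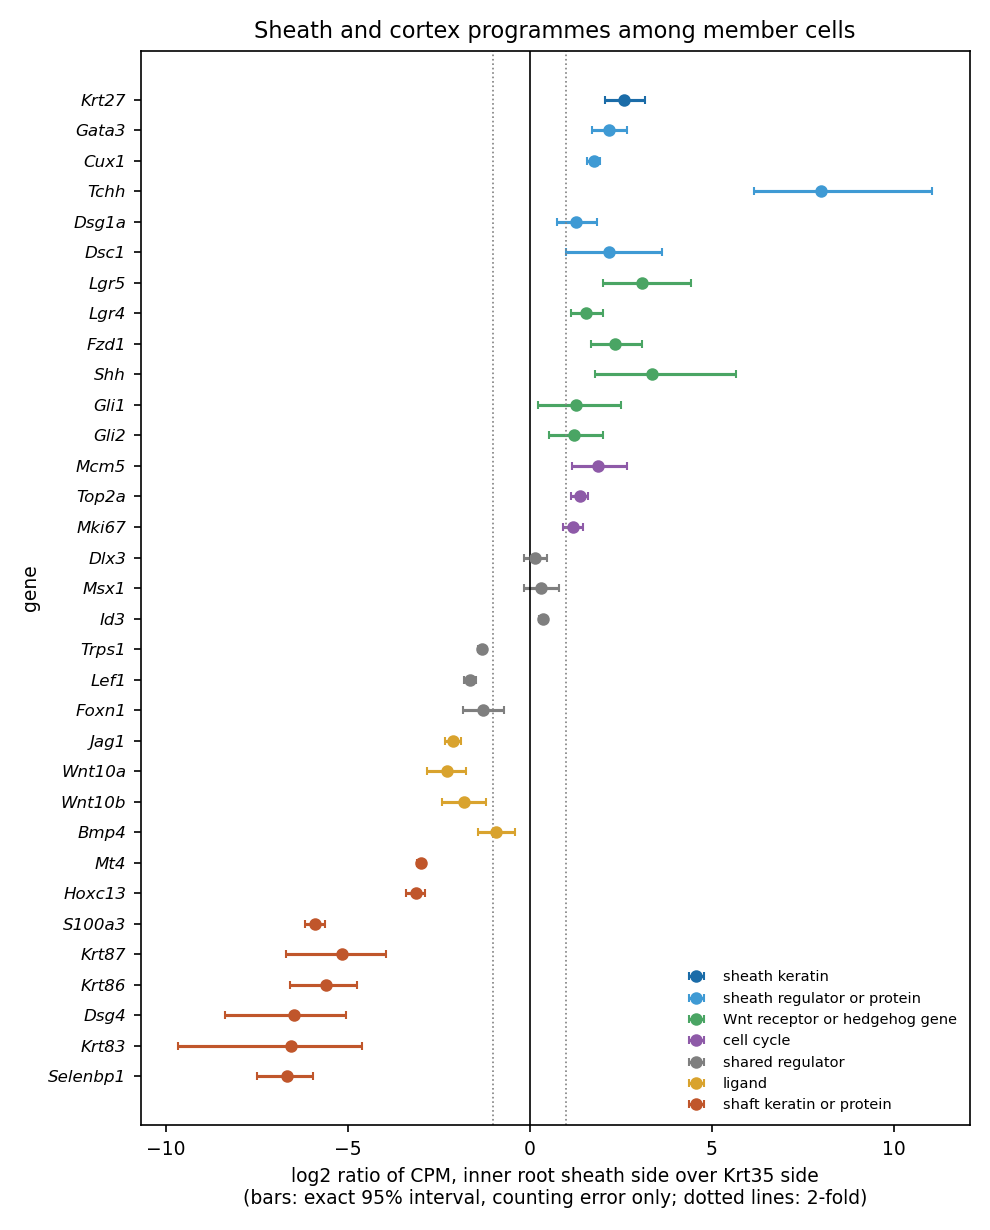
The log2 ratio of the summed level on the inner root sheath side over the Krt35 side is plotted for each gene, with exact 95% intervals for counting error and dotted lines at 2-fold. Of the genes drawn, those grouped as sheath or cell cycle lie to the right of 0 and those grouped as shaft to the left (Dlx3 and Msx1 near 0, Tchh from few cells). The grouping is not that of the lists: Mt4 of the sheath list is drawn with the shaft genes and Trps1 of that list as a shared regulator. Padi3 and Padi4 of the sheath list and Dlx1 and Dlx2 of the shaft list, which lay on the other side, are not drawn.

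Transcripts of matrix regulators were found on both sides, at different levels for some. Of 16 matrix genes, 2 were higher on the sheath side and 5 on the Krt35 side (median log2 ratio -0.69). Over all genes these shares were 14.8% and 5.51%. Dlx3, a homeodomain factor, stood at 113 and 102 CPM, a ratio of 1.11 (0.891 to 1.39), and Msx1 at 57.2 and 46.5 CPM (1.23, 0.893 to 1.73). Those intervals include equality and do not show that the levels were the same. Lef1 stood at 181 CPM on the sheath side, 443 in mixed cells and 568 on the Krt35 side, 3.13-fold higher there than on the sheath side (2.81 to 3.50). Odc1, the polyamine enzyme, was 5.04-fold higher on the Krt35 side. Mixed cells had the highest summed Msx1 of the 3 ranges, at 200.2 CPM.

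Signalling genes were found higher on either side. Over all genes, 14.8% were at least 2-fold higher on the sheath side and 5.51% on the Krt35 side. The counts below rest on few genes each and were not tested against those shares. Sub-clusters 2 and 5 were kept in all of these values. Krt14, high in other keratinocytes, stood at 2501 CPM on the Krt35 side and 1134 on the sheath side. The part of keratinocyte transcripts in single ratios was not tested. Shh, the hedgehog ligand of the matrix, had 139 UMIs on the sheath side and 3 on the Krt35 side (10.3-fold by CPM, 3.45 to 50.6). Of 8 measured hedgehog genes 3 were higher on the sheath side and 0 on the Krt35 side, while the target Ptch1 stood at 79.1 and 66.1 CPM. In the Wnt list, 6 of 28 genes were higher on the sheath side and 8 on the Krt35 side. Those on the sheath side included the R-spondin receptors Lgr5 (8.48-fold) and Lgr4 (2.94-fold) and the receptor Fzd1 (5.03-fold). On the Krt35 side were the receptors Fzd3 (3.40-fold) and Fzd6 (2.58-fold), the ligands Wnt10a (4.88-fold) and Wnt10b (3.51-fold) and the Wnt inhibitor Notum (11.8-fold, 21 against 8 UMIs). Of 10 Notch genes, 2 were higher on the sheath side, including the ligand Jag2 with 147 against 16 UMIs, and 3 on the Krt35 side, among them the ligand Jag1 at 364 against 84.1 CPM (4.32-fold, 3.72 to 5.02) and the target Hes1 (2.49-fold). Of 19 Bmp genes, 1 was higher on the sheath side and 4 on the Krt35 side, including the ligand Bmp2 (2.75-fold). Id3, a Bmp target, was abundant on both, at 1172 and 911 CPM.

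Transcripts of other cell types differed between the sides too. Of 8 melanocyte genes all had UMIs on the sheath side, summing to 184 CPM against 56.8 on the Krt35 side, where Tyr, Tyrp1 and Sox10 were at 0. The 12 immune genes summed to 549 and 35.1 CPM, with C1qa and C1qb at 0 in both and S100a8 and S100a9 from few cells. The 7 fibroblast genes summed to 833 and 206 CPM, nearly all from Dcn, which stood at 826 and 184 CPM. The 19 interfollicular epidermal genes summed to 2789 and 888 CPM and 12 of 16 measured were higher on the sheath side. Without sub-clusters 2 and 5 this was 1 of 7. The 15 outer root sheath and bulge genes lay the other way, at 2975 CPM on the sheath side and 4334 on the Krt35 side. The part of the other transcripts in single ratios was not tested beyond leaving out those cells.

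On the sheath side, 103 cells had a UMI of Krt71 or Krt73 and 158 had none, at medians of 14686 and 14724.5 UMIs. This split was made after the data were seen, and the values of Krt71 and Krt73 are fixed by it. Krt25 and Krt28 are rule keratins, so their levels are a description. Of 9913 genes, 732 (7.38%) were at least 2-fold higher with Krt71 or Krt73 and 739 (7.45%) lower. Without sub-clusters 2 and 5 (79 and 121 cells) these were 387 (4.29%) and 702 (7.79%) of 9014, and the values below are from those cells. Krt25 stood at 2028 CPM with and 490 without, 4.14-fold (3.84 to 4.47), and Krt28 at 797 and 493 (1.62-fold). Krt27 was at 122 and 118 CPM, a ratio of 1.04 (0.835 to 1.28).

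Cells with Krt71 or Krt73 had more transcripts of most desmosome genes. Of 14 desmosome genes 11 were at least 2-fold higher and 0 at least 2-fold lower (median log2 ratio 1.24 against -0.06 over all genes). Short of 2-fold, Dsg2 and Dsg3 lay the other way. They were 1.91-fold (1.26 to 2.99) and 1.80-fold (1.30 to 2.52) higher in cells without these keratins. Dsg1a stood at 152 against 13.0 CPM (11.7-fold, 7.65 to 18.5), Dsc1 was 15.6-fold higher (6.73 to 44.2), and the plaque proteins Dsp and Jup were 2.30-fold and 2.54-fold higher. Gata3 was 2.01-fold higher (1.70 to 2.38) and Tchh 12.7-fold (8.05 to 21.1). Foxn1 stood at 46.9 against 3.13 CPM, 15.0-fold (6.48 to 42.7). Krt75, a keratin of the companion layer and medulla, was 9.51-fold higher (6.65 to 14.0), but this came from few cells. Over the whole sheath side, Krt75 had a UMI in 21 of 103 cells with Krt71 or Krt73 and 22 of 158 without. A cell with these keratins held up to 48 of its UMIs. Among all members, Krt75 was seen in 23 of 92 Krt71 cells and in 2 of 53 Krt73 cells. Ctsc, the lysosomal protease cathepsin C, stood at 473 against 46.9 CPM (10.1-fold), and Lgals3, galectin-3, at 264 against 17.7 CPM (14.9-fold).

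Cells without Krt71 or Krt73 had more transcripts of the matrix. Of 16 matrix genes 10 were at least 2-fold lower in the cells with these keratins and 0 higher (median log2 ratio -1.12), and of 8 hedgehog genes 5 were lower and 0 higher (-1.45). Lef1 stood at 274 CPM without and 109 with Krt71 or Krt73 (2.51-fold), Msx1 at 76.6 and 26.5 (2.89-fold) and Hoxc13 at 64.6 and 17.1 (3.78-fold). Cdh3, P-cadherin, was 5.01-fold higher without, Odc1 7.35-fold, the hedgehog receptor Ptch1 3.02-fold and the transcription factor Gli3 3.70-fold. Shh itself stood at 34.4 and 31.6 CPM, a ratio of 0.918 for with over without (0.597 to 1.39). Some genes chosen after their values were seen also differed. Col17a1, a hemidesmosomal collagen, was 13.3-fold higher without, the Notch ligand Jag2 13.1-fold, Wnt5a 5.76-fold and the activin and Bmp antagonist Fst 8.25-fold. The ligand Wnt11 lay the other way, 7.37-fold higher in cells with Krt71 or Krt73 (27 against 6 UMIs), and Jag1 stood at 102 CPM without and 86.2 with. Mt4 stood at 469 and 54.6 CPM and Dcn, a proteoglycan, at 1341 and 202. The S-phase list had 0 of 26 genes 2-fold apart in either direction.

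**Figure D3:**
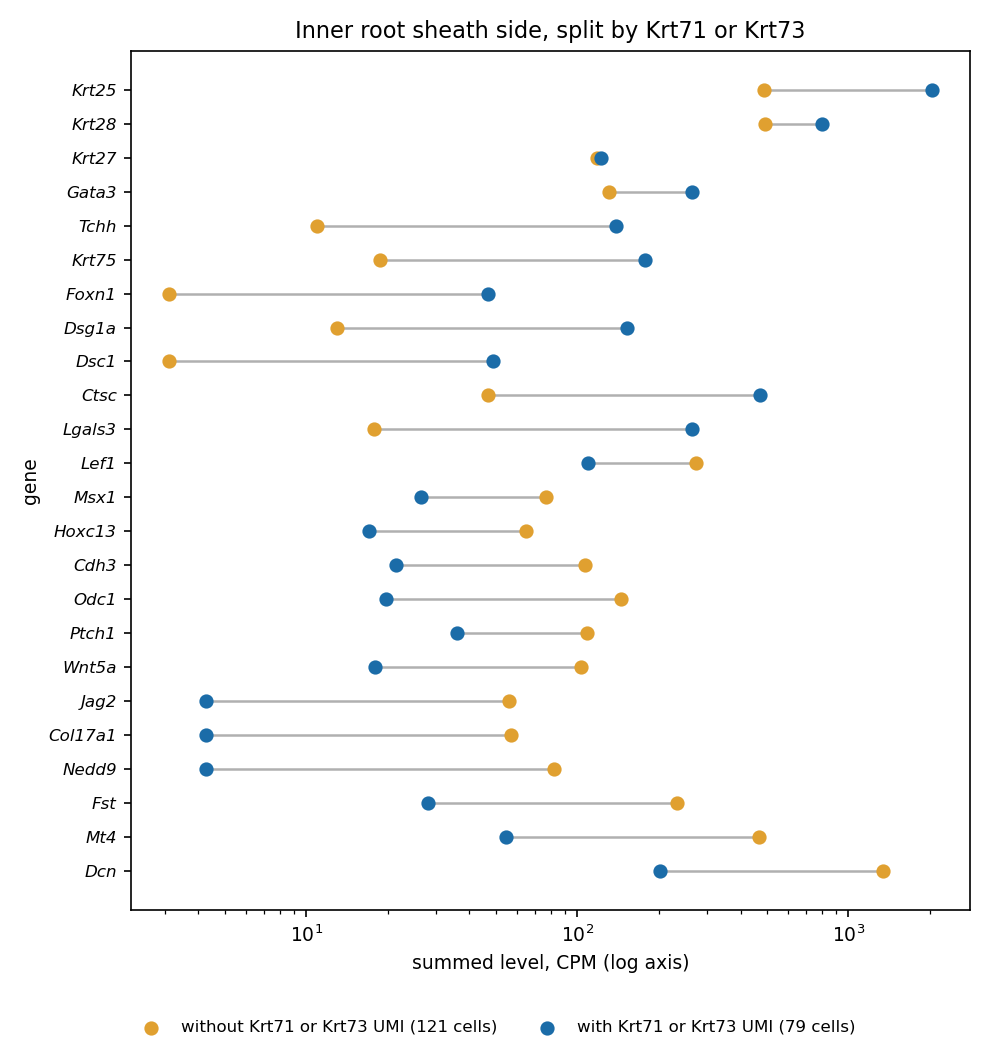
Summed levels in CPM (log axis) of sheath-side cells with a UMI of Krt71 or Krt73 (79 cells) and without (121 cells), sub-clusters 2 and 5 left out. Dsg1a, Dsc1 and Ctsc lie higher in the cells with these keratins, Lef1, Cdh3, Ptch1, Jag2, Mt4 and Dcn lie lower, and Krt27 is nearly level at 122 and 118 CPM.

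The members were clustered into 7 sub-clusters, whose leading genes are a description of how they were formed. Sub-cluster 6 (62 cells, 46 of the Krt35 side) had 6 of 10 cortex markers raised, Krt31, Krt35, Krt36, Krt81, Krt83 and Krt86, and was cortex-like. Sub-cluster 1 (86 cells, all of the sheath side) had the sheath markers Krt71, Krt73 and Gata3 raised. It stayed unnamed because its 10 leading genes held a marker of other types, Krt75 of the companion layer and medulla, and none of the sheath. Krt75 was the first of them but was seen in only 19 of its cells. Lrat, an enzyme of retinoid storage, was seen in 39 and Ctsc in 60. Sub-cluster 0 (31 cells) had Msx1, Msx2, Lef1 and Hoxc13 raised and was matrix-like. Its cells came from all 3 ranges, 10 from the sheath side, 13 mixed and 8 from the Krt35 side. It was led by Odc1 (1002 CPM, in 30 cells) and Aldh1a3, a retinoic acid-forming enzyme (212 CPM). Kitl, the ligand of the melanocyte receptor Kit, stood at 558 CPM there and at 162 in the other members, and Wnt5a at 246 and 54.6.

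Of the other 4 sub-clusters, sub-cluster 5 was melanocyte-like by the marker rule and the rest stayed unnamed. Sub-cluster 3 (49 cells) had 2 matrix markers raised, Msx1 and Shh, and was led by Wif1, a Wnt inhibitor, and by Lrp4 and Dlx2. It had no UMI of Krt71 or Krt73, with Krt28 at 497 CPM and Lef1 at 395. Sub-cluster 4 (58 cells) was led by Acta1, a muscle actin with 99.6% of its UMIs in 1 cell, and by other muscle genes, then by Itga2, a collagen-binding integrin (205 CPM, 29 cells), the guidance ligand Ntn1 and Lgr5 (160 CPM, 28 cells). Sub-cluster 2 (28 cells) had a median of 30744 UMIs, 6808 CPM of Krt14 and 4 of the 8 doublet calls. Its Lce1a1 came from 1 cell. Sub-cluster 5 (42 cells) had all 5 melanocyte markers raised, and Tyrp1, Pmel, Dct and Mlana were among its 10 leading genes. These came from few of its cells, with Pmel in 4 and Dct in 10, and the name does not describe the rest. Of the 42 cells, 40 were of the sheath side, and Krt28 stood at 544 CPM in the sub-cluster. Sub-cluster 5 had 3 doublet calls. The part of doublets in these 2 sub-clusters was not tested.

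**Figure D4:**
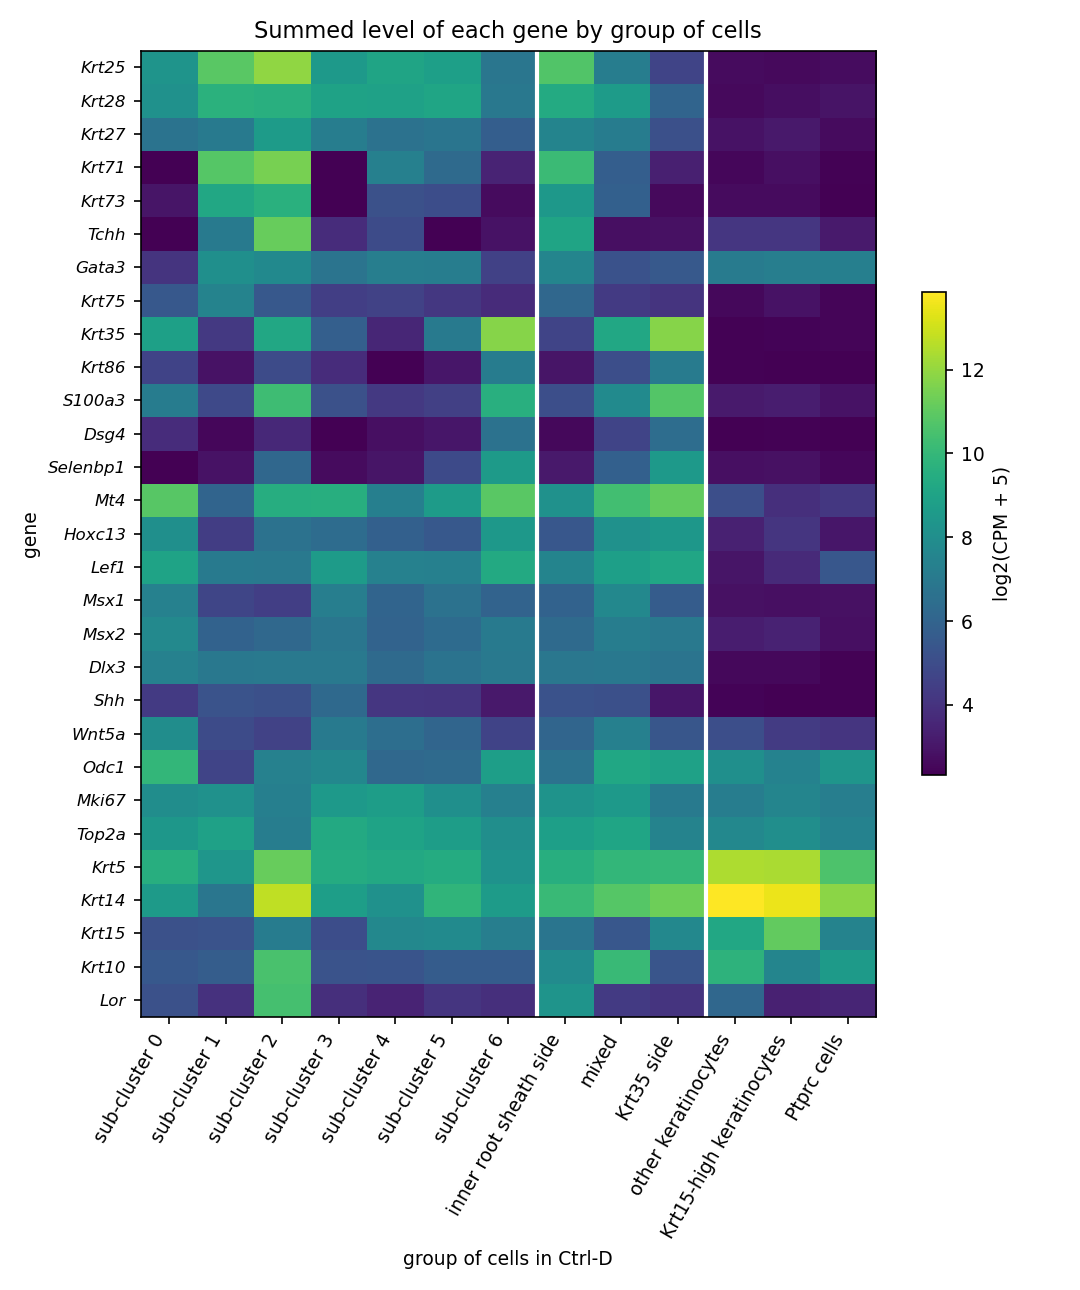
Colour gives log2(CPM + 5) of each gene (rows) in the 7 sub-clusters of members, the 3 ranges and 3 comparison groups of Ctrl-D (columns). Sub-clusters 1 and 2 hold the most Krt71, sub-cluster 6 the most Krt35, and sub-clusters 0 and 3 lack Krt71, while Dlx3 is present in all 7 and low in the comparison groups.

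Members were set against the 4762 other keratinocytes of Ctrl-D. Of 16328 genes, 2577 (15.8%) were at least 2-fold higher in members and 2951 (18.1%) lower. These groups were parted by keratins, so the ratios are a description. The matrix list had 12 of 16 genes higher and 1 lower, and its median log2 ratio was 2.25 against 0.08 over all genes. Dlx3 stood at 112 CPM in members and 0.893 in other keratinocytes, and it was close on both sides (127-fold on the sheath side and 115-fold on the Krt35 side). Lef1 stood at 268 and 2.90 CPM (92.3-fold), Hoxc13 at 110 and 5.28 (20.8-fold), and Bambi, a Bmp pseudoreceptor, at 113 and 4.58 (24.7-fold). Sox5, a transcription factor, stood at 622 and 23.5 CPM. Cldn10, a claudin, was detected in 68.5% of members and stood at 207 against 0.882 CPM. Gata3 did not set the members apart, at 149 and 132 CPM. It was 1.41-fold higher on the sheath side (1.31 to 1.52) and 3.19-fold lower on the Krt35 side than in other keratinocytes.

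Signalling genes were raised over other keratinocytes and bulge genes were lower. The Bmp list had 14 of 23 genes higher and 3 lower, with Id2 10.6-fold and Id3 5.54-fold higher. The hedgehog list had 5 of 9 higher and 0 lower, among them Shh at 27.0 against 0.452 CPM (59.9-fold, 42.3 to 86.3). The Wnt list had 16 of 29 higher and 4 lower, the latter including Wnt10a at 24.5 against 78.8 CPM. Of 15 outer root sheath and bulge genes, 10 were lower and 1, Lhx2, was higher. Krt5 stood at 807 against 5550 CPM, Krt14 at 1415 against 14729 and Krt15 at 118 against 595. Krt5 and Krt14, among those lower, also helped to define the other keratinocytes, so their ratios follow from that choice. Cdkn2a, which encodes the tumour suppressors p16 and p19ARF, stood at 11.0 CPM in members and 61.0 in other keratinocytes (5.54-fold lower). Against the 1439 Krt15-high keratinocytes, 1521 of 13852 genes (11.0%) were higher and 2082 (15.0%) lower, and 12 of 16 matrix genes were higher.

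Cycling cells, those with over 1% of their UMIs from S-phase or G2/M genes once thinned to 1500 UMIs a cell, were 9.58% of members (6.72 to 13.1). They were 9.23% of the sheath side (24 of 260 cells, 6.004 to 13.4), 17.6% of mixed cells (6 of 34, 6.76 to 34.5) and 3.28% of the Krt35 side (2 of 61, 0.400 to 11.3). The intervals of both sides overlap. Thinning left out 1 member. With no thinning the shares of the sheath side, mixed cells and the Krt35 side were 5.36%, 8.82% and 3.28%. Other keratinocytes had 3.57% (3.06 to 4.14) and Krt15-high keratinocytes 6.41% (5.20 to 7.80). Unthinned, members had 5.34%, Krt15-high keratinocytes 5.91% and other keratinocytes 3.02%, so members then did not stand above Krt15-high keratinocytes. Sub-cluster 3 had 22.4% (11 of 49, 11.8 to 36.6), and 10.2% unthinned. By summed level, 24 of 26 S-phase genes and 16 of 30 G2/M genes were at least 2-fold higher on the sheath side than on the Krt35 side and 0 lower. Median log2 ratios were 1.40 and 0.97, and without sub-clusters 2 and 5 the counts were 24 and 27. Mcm5, a replication helicase subunit, stood at 64.4 against 17.6 CPM and Top2a at 442 against 172. Ezh2, the catalytic subunit of PRC2, moved with them, at 188 against 79.6 CPM (2.37-fold, 1.87 to 3.03). It was the 1 of 10 measured PRC2 genes that passed 2-fold, where 14.8% of all genes were that much higher on the sheath side. Eed stood at 80.0 and 57.9 CPM (1.38-fold, 1.04 to 1.87).

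**Figure D5:**
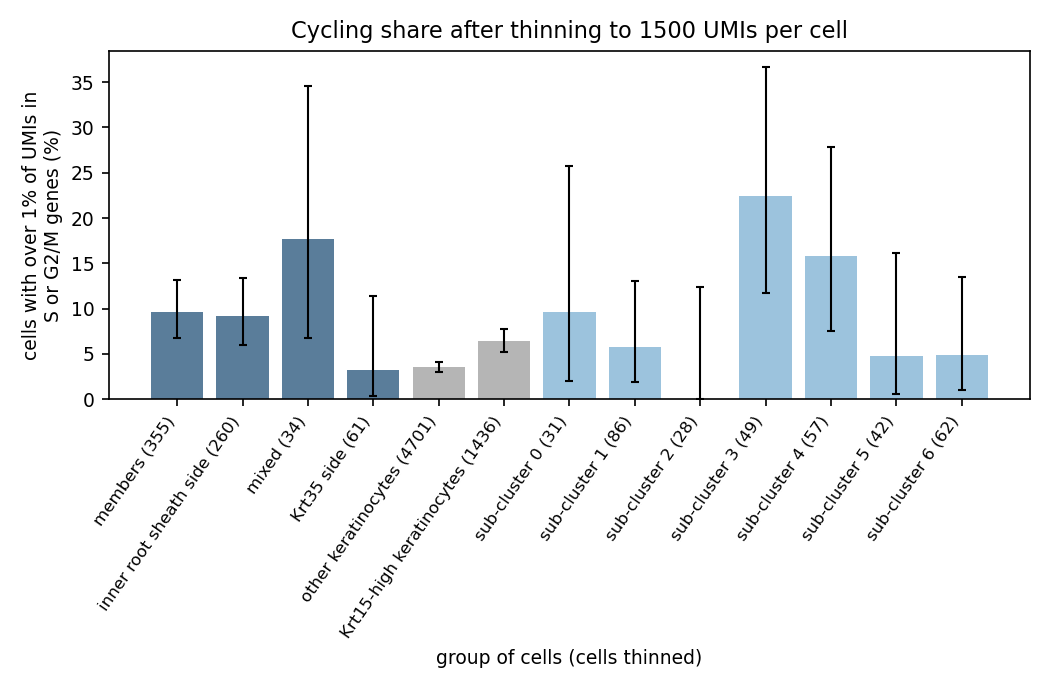
Bars give the percent of cycling cells in each group, each cell thinned to 1500 UMIs, with exact 95% binomial intervals and the number of cells thinned in brackets. Sub-cluster 3 stands at 22.4% and the Krt35 side at 3.28%, with wide intervals in every group of members.

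Members made up 4.73% of kept barcodes in Ctrl-D (4.26 to 5.24) and 0.0186% in Eed iKO-D (0.00507 to 0.0477). After thinning to 1500 UMIs, 164 of 7235 (2.27%) and 3 of 21143 (0.0142%) met the rule, so the gap stood at matched depth. Thinning left out 287 and 341 shallower barcodes. A single UMI of any rule keratin was seen in 826 kept barcodes of Ctrl-D and 202 of Eed iKO-D (0.940%). Genotype, tamoxifen, the tumour piece sampled and its dissociation cannot be told apart here.

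The 4 Eed iKO-D members had 3270, 13555, 16340 and 6189 UMIs. Krt35 gave 4, 0, 112 and 16 UMIs in them, in that order, and Krt28 1, 6, 3 and 1, so every one held Krt28 and 3 of the 4 held Krt35. The third cell had 7 UMIs of Krt25. Lef1 was present in all 4, with 2, 3, 23 and 3 UMIs. That cell also had 10 UMIs of Hoxc13 and 7 of Krt86. Eed had 0 UMIs over the 4 cells, which allows up to 93.7 CPM by the interval, against 76.5 CPM in Ctrl-D members, so at this depth no difference could be seen. Ratios between the libraries were not computed for 4 cells.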

How the data were processed

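Dissociated tumours were profiled by 10x Genomics 3' single-cell RNA sequencing, 1 library a group. The files that the authors deposited hold UMI counts, whole numbers for every gene in every barcode. Cell Ranger is 7.1.0 per the file headers, 2.1.0 per the labels' protocols and 8.0 per the submitters' processing notes, which name the build mm10. The kit version is given in the labels as 2. Of 32285 gene IDs, 99.6% were found in GENCODE M21, the source of gene coordinates, and promoter sequences came from RefSeq (GRCm38.p6). Members and gene lists were chosen with earlier results of these data known.

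UMIs were summed over each group of cells and scaled to CPM. With 1 library a group there was no test. Ratios carry exact conditional binomial intervals, levels exact Poisson intervals and shares exact Clopper-Pearson intervals, all at 95%. UMIs of 1 cell are not independent, so the true spread is larger. A ratio needed 20 UMIs in both groups together, list medians used log2 of (CPM + 5), and a gene counted as higher or lower when its CPM, with no pseudocount, was at least 2-fold apart. Where a group had 0 UMIs, a floor of 3 UMIs over the group gave a bound. Other keratinocytes had under 5 per 10000 of Ptprc, Col1a1, Col3a1, Pecam1 and Pmel. Ptprc cells had at least 2 Ptprc UMIs, and Krt15-high keratinocytes are a subset of other keratinocytes. A Lor-high group of 10 cells was too small to use. Sub-clusters came from scanpy 1.11.5 (1000 variable genes, 15 components, 10 neighbours, resolution 0.5). One was called "X-like" with 3 or more fixed markers at least 2-fold raised, unless its leading genes held more markers of another type. The ratio calculation was run on simulated sums with counting error alone. UMIs gathered in single cells were not simulated, so that run is no check of the spread between cells. Python was 3.11.15 and scipy 1.17.1.

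Named genes were all members of the sheath, shaft and matrix lists, the 15 highest and lowest ratios between the sides, the 20 highest over other keratinocytes (at least 50 UMIs and 50 CPM) and the extreme member of each other list. The lists without sub-clusters 2 and 5 and of the Krt71 or Krt73 split used the same rule after the data were seen. Others, such as Lgr4, Fzd1, Wnt10b, Hes1, Mcm5, Top2a, Gli3, Id2, Dsp, Jup, Dct, Krt5 and Krt14, were chosen after their values were seen.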

Additional observations from a re-analysis of the deposited data

How the results depend on the processing

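The gene and mitochondrial limits of the cell filter, removal of called doublets or of deep members, the keratin threshold, the limits of the Krt35 share, the gene minimum, the pseudocount and the thinning depth were varied 1 at a time, and leaving out sub-clusters 2 and 5 was added after seeing the data. Of these values 86 stayed within the set limits, 6 moved and 0 reversed. A keratin threshold of 10 per 10000 left 216 members, 149 on the sheath side and 16 mixed. A gene minimum of 50 UMIs left 958 genes higher on the sheath side and 314 on the Krt35 side, as fewer genes were then measured. A pseudocount of 1 CPM moved the shaft keratin median to -5.13. Over the alternatives run the Krt35 side held 51 to 61 cells, the sheath protein median ran from 0.17 to 0.76 and the cycling share from 7.69% to 11.1% on the sheath side and 1.67% to 5.00% on the Krt35 side. No paired analysis was possible because each group had 1 library. The Krt35 side rests on 61 cells and the mixed range on 34, and counting intervals leave out differences between animals.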

Other observations

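Dcn, which encodes the proteoglycan decorin and is often used to mark fibroblasts, was among the genes highest in members over other keratinocytes, at 739 against 9.14 CPM. It had a UMI in 68.3% of members. The other fibroblast genes were near 0 in the same cells, with Col1a1 at 2.41 CPM, Col1a2 at 2.24, Col3a1 at 2.58 and Lum at 1.03. Dcn was spread over cells (no cell of the sheath side gave over 4.12% of its UMIs), stood highest in sub-cluster 3 (1705 CPM, 47 of 49 cells) and was lower on the Krt35 side (184 CPM).

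Among members of Ctrl-D, 283 had UMIs of Xist alone, 34 of Y-linked genes alone, 16 of both and 23 of neither. Among other keratinocytes these were 2381, 1526, 222 and 633. The tumours or animals behind the library are not given in the labels, and the part of this difference in the ratios above was not tested.

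Muscle transcripts in sub-cluster 4 came from single droplets. Acta1 had 98.7% of its sheath-side UMIs in 1 cell, and Tnnc2, a troponin of muscle, 95.2%. Itga2 and Lgr5 in the same sub-cluster were found in 29 and 28 of 58 cells.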
